A study of Mus musculus with 4 samples.

Results

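The 7 genes described here encode secreted growth and differentiation signals of immune cells: Il6, Lif, Osm and Clcf1 of the interleukin-6 (IL-6) family, and the colony-stimulating factors Csf1 (M-CSF), Csf2 (GM-CSF) and Csf3 (G-CSF). They were chosen by symbol, and all 7 were found in each of the 2 tables, among 15394 genes for unstimulated and 15310 for stimulated cells. The cells were dendritic cells grown from bone marrow of C57BL/6 mice, 8 weeks of age, either wild type (WT) or GOLPH2-/- (KO, a knockout that is not described as limited to a cell type). GOLPH2, the product of Golm1, resides in Golgi membranes. WT and KO cells were left without stimulation (WT-con and KO-con), or received IFN-gamma for 16 h and then LPS for 4 h (WT-I+L and KO-I+L), which gives 4 libraries and 1 library per group. The number of mice behind a culture, and the factor in which the cells were grown, were not given in the sources used here.

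IL-6 family cytokines signal through receptor complexes that contain the shared chain gp130 (gene Il6st), which activates JAK kinases and the transcription factor STAT3. M-CSF acts through the receptor kinase encoded by Csf1r, G-CSF through Csf3r, and GM-CSF through a complex of Csf2ra and the common beta chain Csf2rb, which activates STAT5. Myeloid cells transcribe several of these genes after Toll-like receptor signals, mainly through NF-kB, and many of their mRNAs carry AU-rich elements that bind decay factors.

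All ratios are log2 of KO over WT, taken from the authors' deposited tables and shifted so that 0 is the point where the deposited p-value is 1. The error after ± is the counting standard error (SE) implied by the deposited p-value; it covers the sampling of reads and not the spread between cultures. The word called is used for genes with an adjusted p under 0.001 (Benjamini-Hochberg, over all genes of the table). With 1 library per group no difference has a replicate check, and a call compares 2 libraries and not 2 conditions. A lower ratio in a bulk library can come from fewer cells that make a transcript or from less of it per cell, which cannot be told apart.

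The knockout was checked first. Over the whole gene, the ratio of Golm1 was −2.09 ± 0.098 without stimulation (the error is an upper limit) and −2.0 ± 0.10 with it; which part was deleted was not given in the sources used here. Identity as dendritic cells was checked next. Of 12 dendritic cell markers 11 were in each table and Cd209a was listed in neither. The integrin gene Itgax and the class II gene H2-Ab1 were abundant in both states, as were the macrophage genes Lyz2 and Emr1 (F4/80). Abundance in a bulk library does not show which cells made a transcript. Also deep were Cd74, Fscn1 and Ccr7 of the dendritic cell list and Cd68 and Itgam of the macrophage list. Both lists held shallower genes too, with read equivalents given for the unstimulated state first. Zbtb46 rested on 732 and 885, Flt3 on 362 and 368, Clec10a on 318 and 184, and Itgae on 15.2 and 13.6. Of the macrophage genes, Mertk rested on 569 and 1553 and C1qa on 61.3 and 50.5. How far the cells were dendritic cells or macrophages was not tested. Of the neutrophil genes, Ly6g and Elane were listed in neither table and Ltf rested on about 2 read equivalents, while Lcn2 rested on 6928 and 11307, Mmp8 on 3345 and 2213, Mmp9 on 1343 and 1383, and S100a8 on 167 and 238.

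Promoter sequences of 4 of the 7 genes were matched and are shown. No promoter entry was found for Osm, Clcf1 and Csf3. All 3 genes called lower in stimulated cells (Il6, Lif and Csf1) are among the 4. Csf3, which was called higher there, is not. Motifs therefore cannot be set beside the direction of a ratio. Each window runs from 250 bases before to 50 bases after the transcription start (RefSeq, GRCm38.p6), read 5′ to 3′ on the strand of the gene. Capitals mark matches to the NF-kB motif on either strand.
Il6 (chr5:30012864-30013163, plus strand): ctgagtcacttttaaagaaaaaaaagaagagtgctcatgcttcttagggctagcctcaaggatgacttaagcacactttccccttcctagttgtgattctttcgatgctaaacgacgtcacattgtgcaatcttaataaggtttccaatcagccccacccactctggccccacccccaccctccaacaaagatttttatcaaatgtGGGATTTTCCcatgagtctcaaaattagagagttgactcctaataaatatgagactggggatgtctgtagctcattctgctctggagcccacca
Lif (chr11:4257318-4257617, plus strand): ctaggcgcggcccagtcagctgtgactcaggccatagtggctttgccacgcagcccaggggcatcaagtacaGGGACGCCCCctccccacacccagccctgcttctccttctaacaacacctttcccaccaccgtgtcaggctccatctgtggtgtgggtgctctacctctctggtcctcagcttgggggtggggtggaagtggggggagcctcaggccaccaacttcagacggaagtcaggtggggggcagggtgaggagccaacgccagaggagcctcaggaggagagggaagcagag
Csf1 (chr3:107760420-107760719, minus strand): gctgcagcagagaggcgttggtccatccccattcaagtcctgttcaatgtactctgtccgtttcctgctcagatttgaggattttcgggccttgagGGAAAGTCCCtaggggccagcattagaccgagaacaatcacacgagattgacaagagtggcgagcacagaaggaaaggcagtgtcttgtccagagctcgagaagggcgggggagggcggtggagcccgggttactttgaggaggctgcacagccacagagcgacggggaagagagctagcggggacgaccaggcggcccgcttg
Csf2 (chr11:54249850-54250149, minus strand): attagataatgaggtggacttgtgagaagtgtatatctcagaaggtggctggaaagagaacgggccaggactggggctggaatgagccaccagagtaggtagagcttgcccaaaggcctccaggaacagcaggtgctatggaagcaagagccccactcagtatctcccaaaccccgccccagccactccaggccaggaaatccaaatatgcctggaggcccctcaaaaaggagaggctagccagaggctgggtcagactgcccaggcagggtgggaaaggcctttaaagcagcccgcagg
The Il6, Lif and Csf1 windows each held an NF-kB match, and the Csf2 window held none. Of all 32851 promoter windows of this length, 8.46% held one. In Il6 the match GGGATTTTCC lay at −44 to −35 from the start, in Lif GGGACGCCCC at −178 to −169 (the motif matched there on both strands), and in Csf1 GGAAAGTCCC at −154 to −145. The AP-1 motif TGANTCA, searched on both strands, matched in Il6 and Lif and in 7.81% of all windows. The C/EBP motif TTGCNNAA, also on both strands, matched in Il6 and Csf2 and in 10.8% of all windows. The core of the interferon-stimulated response element (both strands, 3.44% of all windows) and the TATA box TATAAA (the strand of the gene alone, 8.32%) matched in none of the 4. A match describes the letters of the window and is no evidence of binding.

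The 3′ untranslated regions were read from the GENCODE M21 transcripts (GRCm38) and searched for the AU-rich pentamer ATTTA and the nonamer ATTTATTTA, the strand of the transcript alone. Csf2 held 9 pentamers and 5 nonamers in 317 bases, with overlapping matches counted, and 1.52% of genes of like length (within 1.5 times) held the nonamer. Clcf1 held 4 pentamers and 1 nonamer in 922 bases, against 4.08% of genes of like length with a nonamer. The other members had no nonamer, with 6 pentamers in the 427 bases of Il6 (median 0 in genes of like length), 7 in the 3180 of Lif (median 5), 6 in the 1017 of Osm (median 1), 4 in the 2111 of Csf1 (median 3) and 6 in the 669 of Csf3 (median 1). The 30 bases with the most pentamers are shown for both genes that held the nonamer, with the pentamers in capitals.
Csf2 (chr11:54247329.0-54247358.0, minus strand): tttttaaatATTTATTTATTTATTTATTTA
Clcf1 (chr19:4223402.0-4223431.0, plus strand): taatATTTATTTAtttggagatgttATTTA

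The depth behind each ratio sets how firmly it is known. It is given as read equivalents, the read number per library (the harmonic mean of KO and WT) that gives the counting SE, and it holds no genotype comparison. The median gene rested on 488 read equivalents in unstimulated and 452 in stimulated cells. Il6 rested on 6001 and 25067 read equivalents and Csf3 on 2601 and 15170. Csf1 rested on 3545 and 4914, Lif on 844 and 953, and Clcf1 on 234 and 272. Csf2 was the shallowest member, with 10.3 in unstimulated and 175 in stimulated cells. Osm rested on 10090 in stimulated cells; in unstimulated cells its ratio was too near 0 for an error to be derived.

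Per kilobase of exon, which allows levels of different genes to be compared, unstimulated cells had the order Il6 (2472 read equivalents per kb), Csf3 (1841), Csf1 (751), Lif (208), Clcf1 (127) and Csf2 (12.8). In stimulated cells Csf3 (10736) and Il6 (10324) were highest, followed by Osm (4441), Csf1 (1041), Lif (235), Csf2 (219) and Clcf1 (147). Stimulated over unstimulated read equivalents came to 17.1 for Csf2, 5.83 for Csf3, 4.18 for Il6, 1.39 for Csf1, 1.16 for Clcf1 and 1.13 for Lif. These are descriptions of 1 pair of libraries per state, not scaled for depth, and were not tested. Il6 and Csf3 transcripts were thus already deep in the cells without IFN-gamma and LPS.

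**Figure D1:**
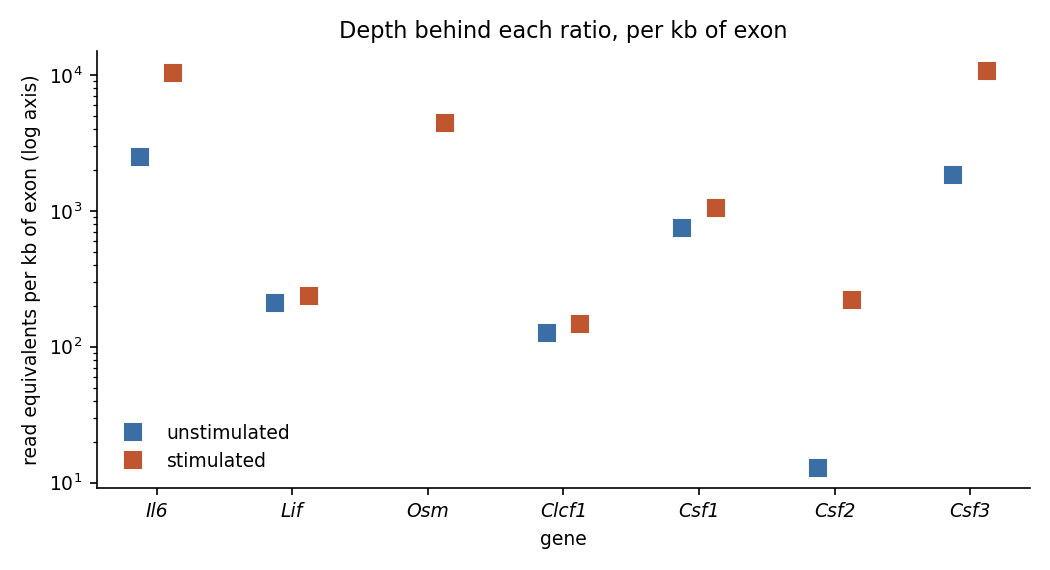
Read equivalents per kilobase of exon (log axis) for the 7 genes, unstimulated in blue and stimulated in orange, 1 point per state with no replicate. Csf2 has the widest gap, from 12.8 to 219, and Lif and Clcf1 lie nearly level; the unstimulated point of Osm could not be derived.

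In unstimulated cells 2 of the 7 genes were called, Il6 and Csf1, both lower in the KO library. Of all 15394 genes 8.96% were called, 4.27% lower and 4.7% higher. The other 5 genes were not called. The median ratio of the 7 was −0.04, beside 0.00 over all genes. None of the 7 was among the 161 genes that the authors' deposited table marks as differentially expressed.

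Il6 (chromosome 5, 30013114 to 30019975) encodes IL-6, the acute-phase and B and T cell cytokine for which the family is named. Its unstimulated ratio was −0.56 ± 0.026, which puts the KO library at 68.0% of WT (65.6% to 70.4%, 95% counting interval). Uncentred, the ratio in the authors' deposited table was −0.37, outside that interval, so the size rests on the zero point. Of the 11240 genes with 50 read equivalents or more, 71 had a lower ratio. Lif (chromosome 11, 4257568 to 4272514), the leukaemia inhibitory factor, was at −0.04 ± 0.070. Osm (chromosome 11, 4236785 to 4241026), which encodes oncostatin M, was at 0.0028, within 0.01 of the zero point. Clcf1 (chromosome 19, 4214238 to 4223505), a ligand of the CNTF receptor, was at 0.05 ± 0.13. Within the family, Il6 alone was called in this state.

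Csf1 (chromosome 3, 107741048 to 107760469) encodes M-CSF, the survival factor of monocytes and macrophages. Its ratio of −0.55 ± 0.034 puts the KO library at 68.1% of WT (65.0% to 71.4%), nearly the same as Il6, and 75 of the 11240 genes had a lower ratio. In the authors' deposited table it was −0.36, likewise outside the interval. Csf2 (chromosome 11, 54247270 to 54249899), which encodes GM-CSF, had the lowest ratio of the 7, −1.29 ± 0.64, but rested on 10.3 read equivalents and was not called (Benjamini-Hochberg adjusted p = 0.16). Its 95% counting interval ran from 17.2% to 97.1% of WT, so the size is not fixed at this depth. Csf3 (chromosome 11, 98700183 to 98703631), the granulocyte factor, was at 0.06 ± 0.040 (adjusted p = 0.36). Of the colony-stimulating factors, Csf1 alone was called in this state.

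In stimulated cells 4 of the 7 genes were called: Csf1, Lif and Il6 lower in the KO library and Csf3 higher. Of all 15310 genes 11.9% were called, 6.54% lower and 5.36% higher. The median ratio of the 7 was −0.28, beside 0.01 over all genes. None was among the 159 genes marked in the authors' deposited table, and none passed 1.5-fold, which 1.01% of all genes passed with a call (0.708% in unstimulated cells). All of these differences were thus small.

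Among the IL-6 family genes of stimulated cells, Lif had a ratio of −0.28 ± 0.066, or 82.4% of WT (75.3% to 90.1%), with an adjusted p of 0.00023. Il6 was at −0.22 ± 0.013, or 85.7% of WT (84.2% to 87.2%). Of 11116 genes with 50 read equivalents or more, 1095 had a lower ratio than Il6. Clcf1 had a larger difference than either, −0.32 ± 0.12, or 79.9% of WT (67.5% to 94.5%), but was not called (adjusted p = 0.042). Osm was at 0.04 ± 0.020 (adjusted p = 0.16). Lif was called and Osm was not; they are neighbours on chromosome 11, with 16541 bases between them, and the difference between their ratios was not tested.

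Among the colony-stimulating factors of stimulated cells, Csf1 was at −0.37 ± 0.029, or 77.2% of WT (74.2% to 80.3%), and 428 of 11116 genes had a lower ratio. Csf2 had a ratio of like size, −0.36 ± 0.15, or 78.0% of WT (63.3% to 96.2%), and was not called at its lower depth (adjusted p = 0.082). Csf3 was at 0.10 ± 0.017, or 107.1% of WT (104.7% to 109.5%), and at 0.06 in the authors' deposited table.

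Calls become more common with depth, so the members were also set beside genes within 2-fold of their own read equivalents. In unstimulated cells 29.4% of such genes were called for Il6, 18.9% for Csf1, 14.7% for Csf3, 6.25% for Lif, 4.36% for Clcf1 and 0.209% for Csf2. In stimulated cells the share was 72.6% for Il6, 63.5% for Csf3, 54.7% for Osm, 33.9% for Csf1, 10.3% for Lif, 4.84% for Clcf1 and 3.62% for Csf2. At the depth of stimulated Il6 and Csf3 most genes were called, while at the depth of Lif most were not. Over all genes of 50 read equivalents or more, 12.2% were called in unstimulated and 16.2% in stimulated cells.

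**Figure D2:**
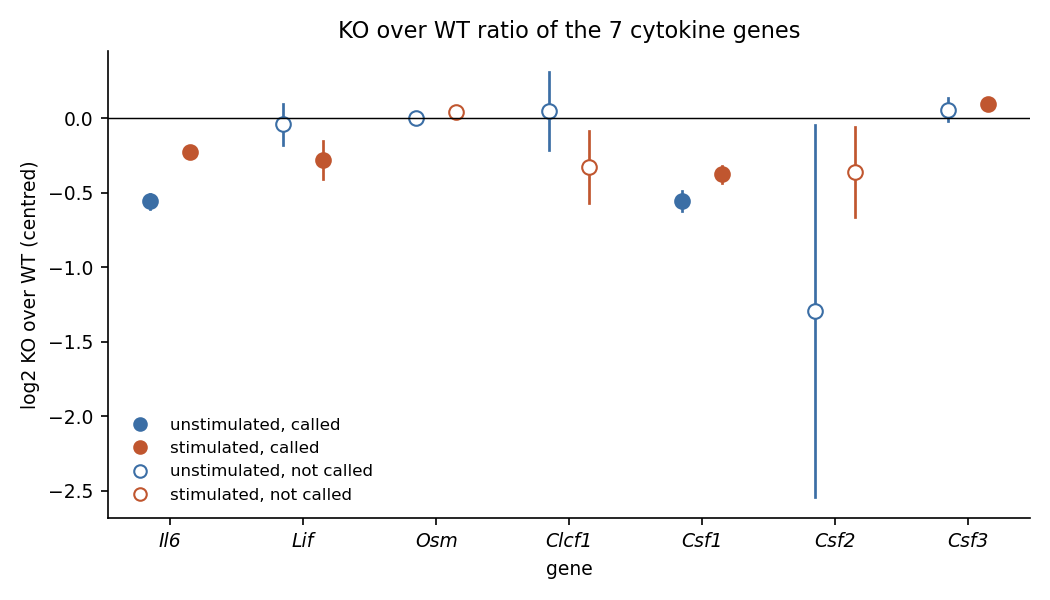
Log2 KO over WT (centred) of the 7 genes, unstimulated in blue and stimulated in orange. Filled points were called and open points were not, and bars are 95% counting intervals of 1 library pair per state (none is drawn for unstimulated Osm). Il6 and Csf1 lie below 0 in both states, Csf3 lies at 0.06 and 0.10, and the bar of unstimulated Csf2 reaches from −2.54 to −0.04.

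The 2 states were measured in separate libraries, so they were set side by side. Whether libraries of the same genotype shared mice or a culture was not given, so the states may not be independent repeats. Likeness between them does not measure the spread between mice. Il6 and Csf1 were called lower in both states, as were 2.23% of the 14823 genes in both tables (331 genes), while 2.96% were called higher in both. These shares cover genes of every depth. At like depth calls were more common in each state (29.4% and 72.6% for Il6, 18.9% and 33.9% for Csf1). The share called lower in both states at like depth was not derived. With the 2 states taken as repeats and their difference as error (limma, 1 residual degree of freedom), Csf1 had a mean ratio of −0.46 (limma SE 0.069, adjusted p = 0.10) and Il6 of −0.39 (limma SE 0.097, adjusted p = 0.18). At an adjusted p under 0.05 this fit passed 0 of the 6 members that entered it and 0.0182% of all genes (2 of 10987, with 0.0091% lower). Csf2 did not enter for its depth. Osm entered, although its unstimulated ratio was too near 0 for a depth to be derived. At an unadjusted p under 0.05 it passed 2 members, Il6 and Csf1, and 1962 genes. The outcome depends on how limma models the spread. With a prior variance that follows the counting error, an alternative added after seeing the data, both genes passed (adjusted p = 0.00014 for Csf1 and 0.0015 for Il6, limma), as did 8.89% of all genes (977 genes, 4.28% lower).

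The ratio of Il6 was nearer to 0 in stimulated cells, by 0.33 ± 0.029 on the log2 scale. Csf1 differed the same way by 0.18 ± 0.045. Lif and Clcf1 went the other way, with stimulated minus unstimulated differences of −0.24 ± 0.096 and −0.37 ± 0.18. For Csf2 the difference was 0.93 ± 0.66 and for Csf3 0.04 ± 0.043, the latter within its counting error. No test of these differences was possible, since no residual degree of freedom is left. The sizes rest on the zero points of the tables: with the ratios as deposited the difference of Il6 was 0.11, and that of Csf1 was −0.05 in place of 0.18. Those of Lif and Clcf1 were then −0.47 and −0.60.

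**Figure D3:**
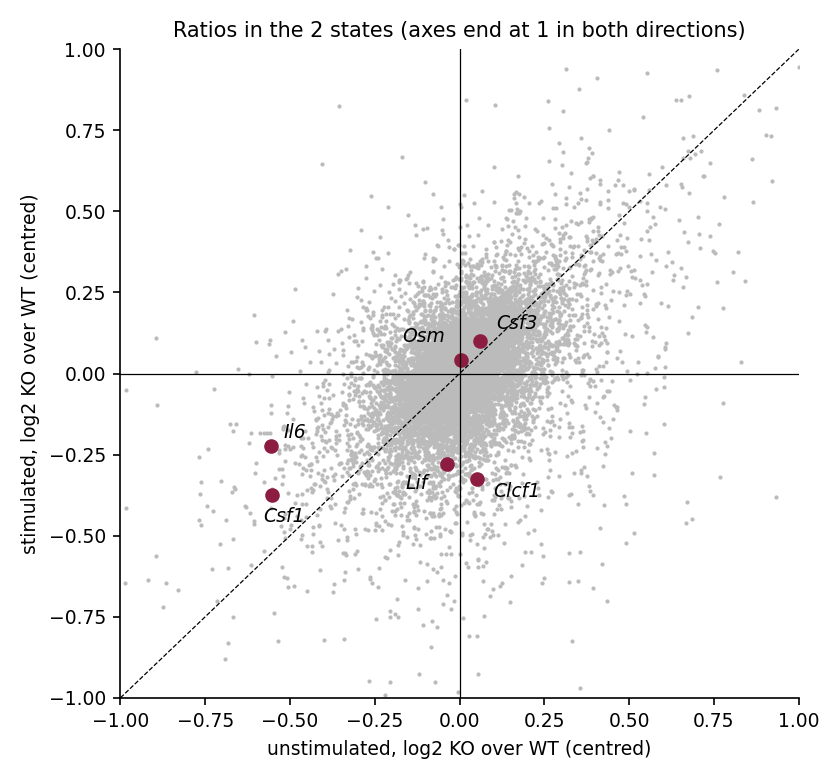
Each grey point is a gene with 50 read equivalents or more in both states, by its log2 KO over WT ratio (centred) in unstimulated (horizontal) and stimulated cells (vertical), and points beyond 1 in either direction are not drawn. Il6 and Csf1 sit at −0.56 and −0.55 on the horizontal axis and above the dashed line of equal ratios, Lif and Clcf1 sit below it, and Csf2 is left out for its depth in unstimulated cells.

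The genes with ratios most like those of Il6 and Csf1 were sought among the 790 other named genes called in both states with 50 read equivalents or more, by Euclidean distance over the 2 log2 ratios. For Il6 they were Acsl1 (distance 0.033), Nfe2l2 (0.044) and Fpr2 (0.044), which encode an acyl-CoA synthetase, the oxidative stress factor NRF2 and a formyl peptide receptor. For Csf1 they were Prdx1 (0.042), Rdh11 (0.070) and Col27a1 (0.072), which encode a peroxiredoxin, a retinol dehydrogenase and a collagen chain. Likeness over 2 values is a description.

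Other ligands of these families were read as well. Beside the list counts here and below, 4.7% of all genes were called higher and 4.27% lower in unstimulated cells. The shares in stimulated cells were 5.36% higher and 6.54% lower. Calls become more common with depth, so these shares are too low a measure for deep genes. Of 8 further IL-6 family genes 5 were in the unstimulated table, with 0 called. Il27 and Ebi3, the subunits of IL-27, were at −0.25 ± 0.070 and within 0.01 of 0 in stimulated cells, and neither was called. Of 7 other blood growth factors, Kitl, Flt3l and Il34 were in each table with 0 called.

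The receptors decide which cells can respond to these cytokines. Of 8 IL-6 family receptor genes 7 were in each table, with 3 called higher and 0 lower in unstimulated and 1 higher and 0 lower in stimulated cells. The gp130 gene Il6st was at 0.15 ± 0.029 (called) in unstimulated cells and within 0.01 of 0 in stimulated cells. The IL-31 receptor gene Il31ra was at 0.92 ± 0.082 and 0.59 ± 0.12, called in both, and Il11ra1 at 0.27 ± 0.043 (called) and 0.14 ± 0.046. The ligand-binding chain Il6ra was at 0.02 in both states, with errors of 0.074 and 0.087. Lifr was at 0.27 ± 0.17 and −0.19 ± 0.12. Osmr was at 1.75 ± 0.59 and 1.25 ± 0.41 on 11.8 and 24.3 read equivalents. None of these last 3 was called.

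Of 7 receptor genes for colony-stimulating and related factors, 1 was called higher and 1 lower in unstimulated cells, and 2 each in stimulated cells. Csf1r, the M-CSF receptor, was called lower at −0.27 ± 0.015 and −0.15 ± 0.016, as was its ligand gene Csf1. Csf2ra, the GM-CSF receptor alpha chain, was called higher at 0.24 ± 0.021 and 0.25 ± 0.021. The beta chain Csf2rb was at 0.01 ± 0.006 and 0.05 ± 0.007 (called in stimulated cells) and its close copy Csf2rb2 at −0.07 ± 0.008 in stimulated cells. How reads that match both of these genes were handled was not given in the sources used here. Csf3r was at 0.05 ± 0.13 and 0.07 ± 0.11 and was not called.

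Of 13 signal carriers and inhibitors, 4 were called higher and 2 lower in unstimulated cells, and 4 higher and 5 lower in stimulated cells. The genes called higher were the same 4 in each state, all feedback inhibitors of cytokine signals. Socs3, which blocks gp130 signalling, was at 0.44 ± 0.021 and 0.31 ± 0.012, Cish at 0.35 ± 0.017 and 0.35 ± 0.016, and Socs2 at 0.30 ± 0.019 and 0.38 ± 0.021. Socs1 was at 0.17 ± 0.022 and 0.11 ± 0.016. Called lower were Jak1 (−0.16 ± 0.021 and −0.13 ± 0.021) and Jak2 (−0.12 ± 0.011 and −0.14 ± 0.010), and in stimulated cells also Stat3 at −0.24 ± 0.017 and the phosphatase genes Ptpn6 (−0.19 ± 0.038) and Ptpn11 (−0.12 ± 0.029). Ptpn6 encodes SHP-1, which also inhibits cytokine signals. The unstimulated direction of Jak1 and Jak2 rests on the zero point of 0.19, and as deposited both of these ratios lie above 0. Stat5a and Stat5b were not called in either state. Many genes of this list were deep, with Jak2, Cish and Stat3 on 42741, 16321 and 15138 read equivalents in stimulated cells. At the depth of stimulated Osm and Il6, 54.7% and 72.6% of genes were called.

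Of 12 genes that STAT3 or STAT5 signals are known to induce, 4 were called higher and 2 lower in each state. Ccl17, a chemokine gene of dendritic cells that GM-CSF induces, was at 0.42 ± 0.019 and 0.60 ± 0.023. Cebpb, a transcription factor of the Il6 gene, was called in both states with opposite signs, −0.23 ± 0.021 and 0.09 ± 0.020. Cebpd was at 0.14 ± 0.099 and 0.48 ± 0.12 (called in stimulated cells), and Il4ra at 0.20 ± 0.014 (called) and 0.04 ± 0.014. Mcl1 was called lower in unstimulated cells at −0.17 ± 0.012, but as deposited that ratio lies above 0.

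Of 17 transcriptional regulators of cytokine genes, 5 were called higher and 3 lower in unstimulated cells, and 4 in each direction in stimulated cells. Nfkbiz, an NF-kB cofactor for Il6, was called lower in both states, at −0.33 ± 0.045 and −0.19 ± 0.032. The others called lower in unstimulated cells were Nfkb2 (−0.07 ± 0.018) and Rela (−0.12 ± 0.026). Their direction rests on the zero point of 0.19, and as deposited both ratios lie above 0. The NF-kB subunit gene Nfkb1 was called higher, at 0.21 ± 0.014 and 0.20 ± 0.013, as was Irf8 at 0.32 ± 0.017 and 0.24 ± 0.013. In stimulated cells Rel (−0.34 ± 0.035) and Klf4 (−0.59 ± 0.036) were called lower. In a list of 12 genes made for RNA decay and stability, Tnfaip3 was called lower at −0.33 ± 0.021 and −0.36 ± 0.014, and Zfp36l2 higher at 0.08 ± 0.018 and 0.35 ± 0.022. These were the calls in unstimulated cells, and stimulated cells added Zfp36l1 (0.21 ± 0.022) and Rc3h1 (−0.19 ± 0.043). Tnfaip3 encodes an inhibitor of NF-kB signals and not a decay factor. Zc3h12a, whose product cleaves Il6 mRNA, was at 0.04 ± 0.019 and 0.06 ± 0.017, and Zfp36, whose product binds AU-rich elements such as those of Csf2, at 0.05 ± 0.019 and −0.03 ± 0.018. These 2 were not called.

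Other LPS-induced cytokine and mediator genes were called lower in most cases where they were called. Of 14 listed, 13 were in the unstimulated table, with 7 called lower and 1 higher and a median of −0.32. The size of that median rests on the zero point of 0.19. Il1rn, at −0.10 ± 0.011, is 1 of the 7, and as deposited its ratio lies above 0. In stimulated cells 6 were called lower and 1 higher of 14, with a median of −0.14. Examples are Il12b (−0.68 ± 0.040 and −0.83 ± 0.032), Ptgs2 (−0.52 ± 0.024 and −0.16 ± 0.006), Il12a (−0.61 ± 0.087, and −0.18 ± 0.050 without a call) and Il1b (−0.41 ± 0.019 and −0.07 ± 0.006). Lta was called higher at 0.72 ± 0.11 and 0.61 ± 0.079. Tnf, at −0.14 ± 0.046 and −0.07 ± 0.021, was not called, and as deposited its unstimulated ratio lies above 0. Errors are upper limits for unstimulated Socs3, Cish, Ccl17, Ptgs2 and Il1b and stimulated Socs3, Ccl17 and Il12b, whose deposited p-values stand at the cap of their table. The same holds for Cd14, a monocyte marker given with the cell markers, in both states.

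**Figure D4:**
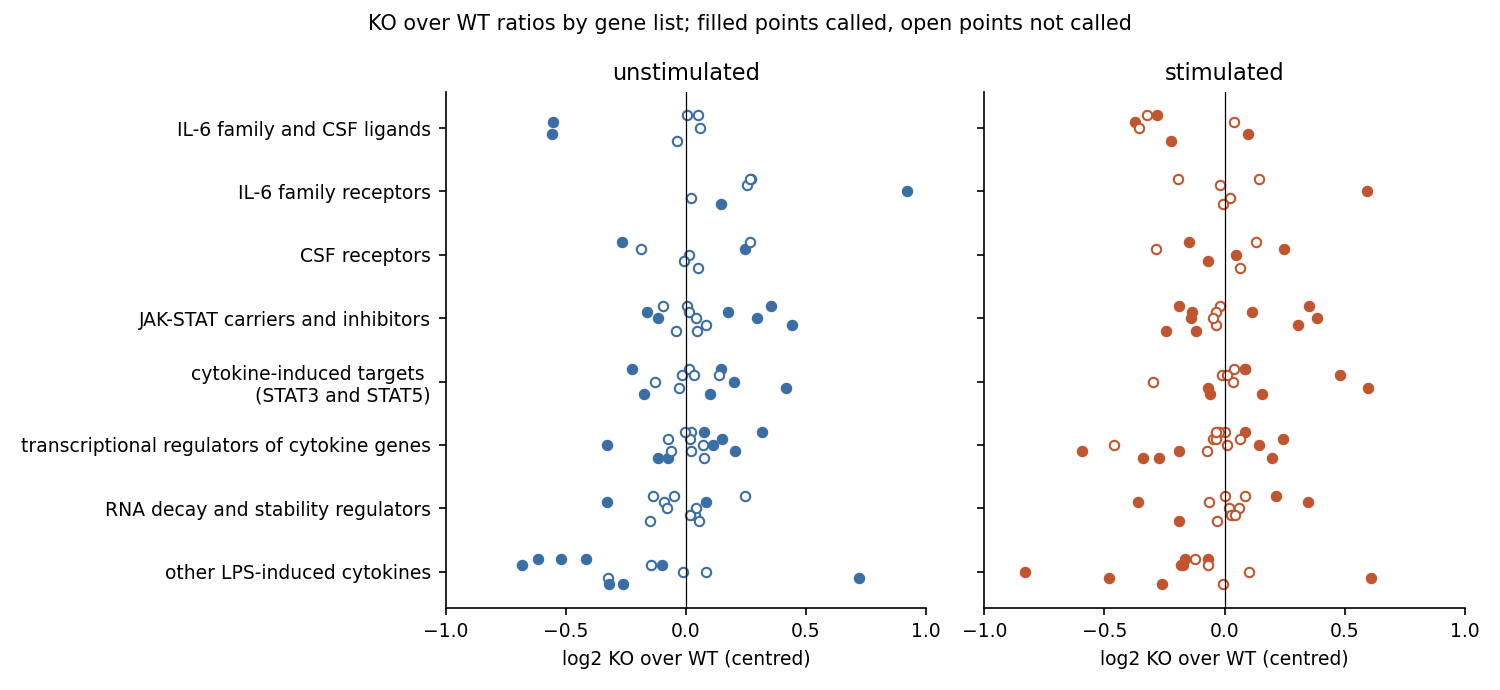
Log2 KO over WT (centred) for genes of 8 lists in unstimulated (left) and stimulated cells (right). Each point is a gene with 50 read equivalents or more, or one too near 0 for its depth to be derived; filled points were called, open points were not, and the vertical scatter within a list has no meaning. The LPS-induced cytokines lie mostly below 0 and the highest of the IL-6 family receptors is Il31ra at 0.92 and 0.59.

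Markers of other cells also differed between the KO and WT libraries. Beside the counts below, 4.7% of all genes were called higher and 4.27% lower in unstimulated cells. In stimulated cells these shares were 5.36% and 6.54%. They cover genes of every depth, and at the depth of stimulated Il6 72.6% of genes were called in either direction. In stimulated cells H2-Ab1, Fscn1 and Emr1 were deeper still, on 41150, 46701 and 38509 read equivalents. For such genes a call is common. Other called markers were shallow, such as stimulated Clec10a on 184 and C1qb on 189. Of 13 fibroblast and stromal markers, 6 were called higher and 0 lower in unstimulated cells (median 0.62), and 8 higher and 1 lower in stimulated cells (median 1.32). The collagen gene Col3a1 was at 3.06 ± 0.58 and 6.27 ± 0.40 on 12.4 and 26 read equivalents, and Col1a1 at 0.62 ± 0.25 (not called) and 3.51 ± 0.19 on 65.1 and 110.1. Among 13 genes typical of macrophages and monocytes 8 were higher and 2 lower by a call in unstimulated cells, and 7 higher and 2 lower in stimulated cells. The complement gene C1qb was at 1.0 ± 0.15 and 0.94 ± 0.15, and the LPS co-receptor gene Cd14 at −0.51 ± 0.024 and −0.27 ± 0.010. Of the dendritic cell markers, 7 were called higher and 0 lower in each state, with list medians of 0.22 and 0.09. The called ratios differed in size. Clec10a was at 0.84 ± 0.11 and 0.86 ± 0.15. Cd74 was called at 0.04 ± 0.006 and 0.08 ± 0.006, on 123741 and 127337 read equivalents. Neutrophil markers had 2 called lower of 10 in unstimulated cells (Lcn2 and Mmp8) and 1 of 7 in stimulated cells (Lcn2). Lymphocyte markers had 1 called higher of 10 in each state (Gzma, then Gzmb), and mast cell, basophil and eosinophil markers 1 called lower of 6 and of 3 (Hdc). Stromal cells and macrophages are known sources of M-CSF and IL-6, and the part of these shifts in the ratios of the members was not tested.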

How the data were processed

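RNA from 4 libraries, 1 per group with groups taken from the sample titles, was prepared with a strand-specific Illumina mRNA kit, per the labels' protocols. FastQC 0.10.1, HTSeq 0.6.0 and mm10 are named per the submitters' processing notes. The aligner, annotation, strand setting, scaling and statistic were not given in the sources used here.

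Both tables deposited by the authors give a log2 fold change of KO over WT per gene, per the file headers. The deposited p-value column, named log10 per the file headers, holds −log10 p from its values, capped at 100 and 150. Per-library values and library totals were not analysed here. Among genes under 15 read equivalents, 2821 of 2822 and 2854 of 2856 deposited ratios equalled a ratio of whole numbers with a denominator up to 30 (within 1e-08 on the log2 scale).

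Ratios were centred on the median deposited ratio of the 100 genes of lowest −log10 p, leaving out ratios shared by several genes (0.19 and −0.04). The counting SE is the centred ratio over the normal deviate of the two-sided p, not derived within 0.01 of 0. Calls used Benjamini-Hochberg adjustment (statsmodels 0.14.6) over each table. The fit over both states used limma 3.58.1 on genes of 50 read equivalents or more in both. Listed symbols found in neither table were looked up by RefSeq synonym. Sequences came from RefSeq (GRCm38.p6) and GENCODE M21, and gene positions from RefSeq.

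All 7 members were named, with their receptors, 2 to 4 called genes of the largest ratio per pathway list, the 3 genes most alike by distance, and chromosomal neighbours. Genes named beside these were chosen after their values were seen (such as Tnf, Zfp36, Zc3h12a, Il1b, Nfkb1, Socs1, Jak1, Jak2, Il27, Ebi3, other genes named as not called, and the cell markers). 1 listed gene is not reported here. Members and lists were chosen with earlier results of these data known. The procedure was tested on simulated data drawn from the same counting model that it assumes. That run could not test whether the authors' statistic has this form, and it held no spread between cultures. Alternatives were the centring, the filter on depth, the threshold and the limma prior.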

Additional observations from a re-analysis of the deposited data

Results flagged for a closer look

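Clcf1 had ratios of opposite sign in the 2 states, 0.05 ± 0.13 in unstimulated and −0.32 ± 0.12 in stimulated cells. The stimulated minus unstimulated difference was −0.37 ± 0.18 (counting error). Neither ratio was called, and the difference was not tested, because each genotype has 1 library in a state.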

How the results depend on the processing

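The calls of the 7 genes (2 in unstimulated and 4 in stimulated cells) did not change with an adjustment over genes of 50 read equivalents or more, or at an adjusted p under 0.05 in unstimulated cells. Calls rest on the deposited p-values, which no centring of the ratios can change. At an adjusted p under 0.05 stimulated cells had 5 calls, with Clcf1 added. With 1.5-fold required, 0 of the 7 were called in either state, 0 higher and 0 lower. Over all genes the 1380 and 1822 calls became 2749 and 3354 at an adjusted p under 0.05, and 109 and 155 with 1.5-fold. As deposited, 1010 of the unstimulated calls were higher and 369 lower, against 723 and 657 after centring. The fit over both states (limma) called 2 genes, 0 without the depth filter (1518 at an unadjusted p under 0.05), 0 with centring on the median gene (1901 at an unadjusted p under 0.05), 173 as deposited and 977 with the variance trend, the last with 2 members and the others with 0. With the ratios as deposited, unstimulated Il6 and Csf1 were at −0.37 and −0.36 in place of −0.56 and −0.55, unstimulated Lif was at 0.15 in place of −0.04, and the differences between states of Osm, Csf1 and Csf3 were −0.190, −0.047 and −0.188 in place of 0.04, 0.18 and 0.04. The cause was not tested. Csf2 in unstimulated cells and Osmr are limited by depth. Leaving out a library was not possible with 1 per group. No paired analysis was possible because each group has 1 library and the labels carry no replicate number.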

Other observations

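The nearest genes beside the members on the chromosome were read as well. Csf3 lies 965 bases from Med24 and 4204 bases from Psmd3, and neither neighbour was called in either state (Med24 at 0.06 ± 0.050 and 0.07 ± 0.052, Psmd3 at 0.01 ± 0.030 and 0.04 ± 0.029). Pold4 and Rad9a beside Clcf1, Tyms beside Il6 (−0.05 ± 0.11 and −0.30 ± 0.094) and Ahcyl1 beside Csf1 were not called in either state. Dnajb6, 226635 bases from Il6, was called lower in both states at −0.13 ± 0.019 and −0.10 ± 0.017. Its unstimulated direction rests on the zero point of 0.19, and as deposited that ratio lies above 0. P4ha2, which encodes a collagen prolyl hydroxylase 115601 bases from Csf2, was called lower in stimulated cells at −0.42 ± 0.052. Il3, the other neighbour of Csf2, was listed in neither table.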
